A study of Mus musculus with 17 samples.

Results

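The fibroblast growth factor (FGF) ligands of the Fgf3 locus and the FGF receptors were followed in erythroid blasts of mice that carry a Spi1 transgene. The members are Fgf3, Fgf4 and Fgf15, which lie next to each other on chromosome 7, and the receptors Fgfr1, Fgfr2, Fgfr3 and Fgfr4, 7 genes of the 28600 listed in the deposited count tables of both models together. They were selected on their names, and with the levels of these same libraries known. Fgf3 in particular was chosen from its level in the leukaemic TgSpi1FA-/- mice, so its levels and those of the other members in those mice are given as a description without a test. Members were found by gene name. All 7 are listed for model 1 and 5 for model 2, where Fgf4 and Fgfr2 are not listed.

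Messenger RNA was sequenced from blasts of 17 mice, with 1 library per mouse, in 5 groups. Model 1, on a DBA2JxFVB/N background, had 4 TgSpi1FA+/+ preleukaemic mice (preleukemic_138, preleukemic_445, preleukemic_451, preleukemic_479), 3 TgSpi1FA-/- preleukaemic mice (preleukemic_40, preleukemic_77, preleukemic_224) and 3 TgSpi1FA-/- leukaemic mice (leukemic_26, leukemic_28, leukemic_39). Model 2, on a DBA2J background, had 4 preleukaemic mice (preleukemic_633, preleukemic_663, preleukemic_812, preleukemic_837) and 3 leukaemic mice (leukemic_601, leukemic_606, leukemic_921), all TgSpi1FA+/+, whose leukaemia arose after serial blood transfusion. All mice carried the Spi1 transgene, which encodes the transcription factor SPI1 (PU.1), and FA denotes Fanca, a gene of the Fanconi anaemia DNA repair pathway that is deleted in FA-/- mice. The blasts came from sick mice whose age the labels do not give, they were grown with erythropoietin, and each library stands for the culture of 1 mouse. Mice are named by the ending of their title in the labels. For preleukemic_40, preleukemic_77 and preleukemic_224 the title and the cell type label say preleukaemic, while the source label and the column headings of the count table say leukaemic. The title was followed, and each comparison with these mice rests on it. Genotype within model 1 was compared in preleukaemic mice only, since TgSpi1FA+/+ leukaemic mice of that model were not analysed here. The models differ in strain, RNA input (400 against 300 ng) and fragmentation time (8 against 2 minutes) as well as in the way leukaemia arose, so these cannot be told apart and values of both models are only set side by side.

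FGF ligands are secreted proteins that bind receptor tyrosine kinases of the FGFR family together with heparan sulphate chains on the cell surface. An occupied receptor phosphorylates the docking protein FRS2, which recruits GRB2 and SOS and so feeds the RAS-ERK cascade, and that cascade induces its own brakes, among them the Sprouty and Spred proteins and the dual-specificity phosphatases. Fgf3 was found as a gene that mouse mammary tumour virus activates by inserting nearby, and it is used in the embryo, for instance in the inner ear. Fgf4 acts in the early embryo, and Fgf15 is the mouse counterpart of human FGF19, a hormone that the intestine sends to the liver to restrain bile acid synthesis.

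Fgf3 (ENSMUSG00000031074, chromosome 7 from 144838083 to 144844436, plus strand, GRCm38) is followed 2.93 kb downstream by Fgf4 (chromosome 7 from 144847367 to 144865243) and further on by Fgf15 (chromosome 7 from 144896531 to 144900953), which starts 58.4 kb from the Fgf3 start. All of them are transcribed from the plus strand. The promoters of the first pair are printed because these neighbours differed most in level, and SPI1 is the protein that all these mice carry as a transgene. Each sequence is 300 bases of RefSeq (GRCm38.p6), plus strand, 250 bases before and 50 after a RefSeq start, and capitals mark the letters of the SPI1 core (GAGGAA, or TTCCTC on the other strand) and of the GATA core (AGATAA, or TTATCT), which do not overlap. Both motifs were picked after the levels were known.
Fgf3, chr7:144838362-144838661: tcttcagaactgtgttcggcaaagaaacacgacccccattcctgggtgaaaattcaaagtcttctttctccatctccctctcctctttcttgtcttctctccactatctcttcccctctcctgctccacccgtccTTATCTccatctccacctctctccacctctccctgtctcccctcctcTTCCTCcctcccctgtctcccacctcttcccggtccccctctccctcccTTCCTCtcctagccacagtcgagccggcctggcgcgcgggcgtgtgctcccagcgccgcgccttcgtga
Fgf4, chr7:144861136-144861435: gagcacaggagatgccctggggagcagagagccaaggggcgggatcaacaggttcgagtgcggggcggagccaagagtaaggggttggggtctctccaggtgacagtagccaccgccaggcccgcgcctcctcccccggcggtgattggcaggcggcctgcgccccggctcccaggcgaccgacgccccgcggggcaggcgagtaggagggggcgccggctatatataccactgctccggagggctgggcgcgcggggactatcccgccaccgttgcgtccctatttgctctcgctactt
The Fgf3 window held the SPI1 core 2 times and the GATA core once, each on the minus strand, and 75% of its bases were C or T. The Fgf4 window held neither, with 46.3% C or T. Of 32851 promoter windows of the same length, 28.3% held the SPI1 core and 11.2% the GATA core, so letters like these are common. The RefSeq starts of Fgf3 and Fgf4 lie 0.529 and 14.0 kb inside the genes as GENCODE draws them, on which the distances above rest. Sequences were at hand for 5 of the 7 members, and the SPI1 core was also in the window of Fgfr4 and in 1 of 2 windows of Fgfr3, but not in that of Fgfr2. The match of letters is a description and no binding was measured.

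The libraries held between 29964576 and 40514205 counts. A level is given as CPM, the count scaled to a common library size after normalization by the trimmed mean of M values (TMM), and 3 counts in a library correspond to 0.0742 to 0.0985 CPM. Fanca was at 28.1 to 83.5 CPM in the FA+/+ groups and at 0.615 to 2.30 CPM in the FA-/- groups, as the labels say. The 9 erythroid markers checked were all detected in every group, with a summed level between 2200 and 5113 CPM, while the myeloid list stayed at or below 1.78 CPM and the lymphoid list at or below 0.493 CPM. The libraries preleukemic_445 and preleukemic_479 were much closer to each other (chi-square per degree of freedom 8.53) than any other pair of one group in model 1 (114 to 372), while in the second deposited count table the pair stood at 350 and the other pairs at 393 to 742. They were kept as separate mice as labelled, and with their counts summed as 1 library the comparison of the preleukaemic genotypes again called 1 gene and no member. In bulk RNA, fewer cells that make a transcript and less transcript per cell cannot be told apart.

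Fgf3 was the most abundant member, and nearly all of its counts came from the blasts of a pair of leukaemic mice. It had 14660 counts in leukemic_28 and 19005 in leukemic_39, or 375 and 482 CPM, and 200 counts (5.48 CPM) in leukemic_26, the third TgSpi1FA-/- leukaemic mouse. Among the TgSpi1FA-/- preleukaemic mice preleukemic_77 had 1 count and preleukemic_40 and preleukemic_224 had none. The leukaemic mice averaged 287 CPM ± 250 (SD, n = 3) and the preleukaemic ones 0.0109 CPM ± 0.0190 (SD, n = 3). The ratio of summed counts per library size was 28135, with a 95% exact interval of 5049 to 1111311 that covers counting error only and rests on a single preleukaemic count. Within the leukaemic group, Fgf3 was 68.4-fold higher in leukemic_28 than in leukemic_26 (counting interval 59.5 to 79.0) and 88.0-fold higher in leukemic_39 than in leukemic_26 (76.5 to 102), whereas leukemic_39 exceeded leukemic_28 by 1.29-fold (1.26 to 1.31). These mice also differ in the mutations that the paper reports, of Kit in leukemic_26 and of Nras in leukemic_28 and leukemic_39. Whether the levels of Fgf3 and the other members go with the mutation was not tested. Per kilobase of exon, Fgf3 ranked 111th of 19434 genes with a count in leukemic_39, 178th of 19375 in leukemic_28 and 8639th of 18466 in leukemic_26.

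Fgf15 followed the same order of groups at a lower level. Its counts in leukemic_26, leukemic_28 and leukemic_39 were 38, 1290 and 619 (1.04, 33.0 and 15.7 CPM), and those in preleukemic_40, preleukemic_77 and preleukemic_224 were 0, 3 and 0. The ratio of summed rates between the groups was 539 (95% exact interval 184 to 2617, counting error only). In contrast to Fgf3, Fgf15 was lower in leukemic_39 than in leukemic_28, by a ratio of 0.476 (0.432 to 0.525). Per kilobase of exon, Fgf3 was therefore 6.92 times as abundant as Fgf15 in leukemic_26, 14.9 times in leukemic_28 and 40.4 times in leukemic_39.

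Fgf4, which lies between the other ligands, had 4 counts in leukemic_28 and 3 in leukemic_39, and no count in any of the other 15 libraries. Its highest level, 0.102 CPM in leukemic_28, is close to that of 3 counts, so a difference between groups was not detectable at this depth.

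Fgfr1 was the receptor with the highest level. It had 27, 533 and 257 counts in leukemic_26, leukemic_28 and leukemic_39 (0.740, 13.6 and 6.52 CPM) against 5, 0 and 0 in preleukemic_40, preleukemic_77 and preleukemic_224, a ratio of summed rates of 136 (95% exact interval 57.9 to 419, counting error only). Mouse leukemic_28 was the highest and leukemic_26 the lowest of the leukaemic mice, as for Fgf15. Fgfr3 had 56, 68 and 10 counts in leukemic_26, leukemic_28 and leukemic_39 (1.53, 1.74 and 0.254 CPM) against 1, 1 and 0 in preleukemic_40, preleukemic_77 and preleukemic_224, and here leukemic_39, the mouse with most Fgf3, was the lowest. Its ratio of summed rates was 55.7 (15.1 to 464). Per kilobase of exon the order of these receptors turned within the group: Fgfr1 was at 0.349 times Fgfr3 in leukemic_26, at 5.68 times in leukemic_28 and at 18.6 times in leukemic_39. Fgf3 exceeded Fgfr1 per kilobase by 31.4, 117 and 314 times in those mice.

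Fgfr2, whose forms in epithelia respond to Fgf3, had 1 count in preleukemic_445 and 1 in leukemic_39 and none in the other libraries. Fgfr4, the liver receptor for Fgf15, had at most 3 counts in a library (preleukemic_479) and was found in 4 libraries. A count of 0 allows up to 3 counts, or 0.0742 to 0.0985 CPM, so these values do not show absence. In the TgSpi1FA-/- leukaemic against the TgSpi1FA-/- preleukaemic mice, the levels of 4 of 4 members past the filter on low counts (Fgf3, Fgf15, Fgfr1 and Fgfr3) did not overlap, where 38.7% of all 13393 genes tested did not. The members were chosen in that comparison, and nothing is read from their count.

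**Figure D1:**
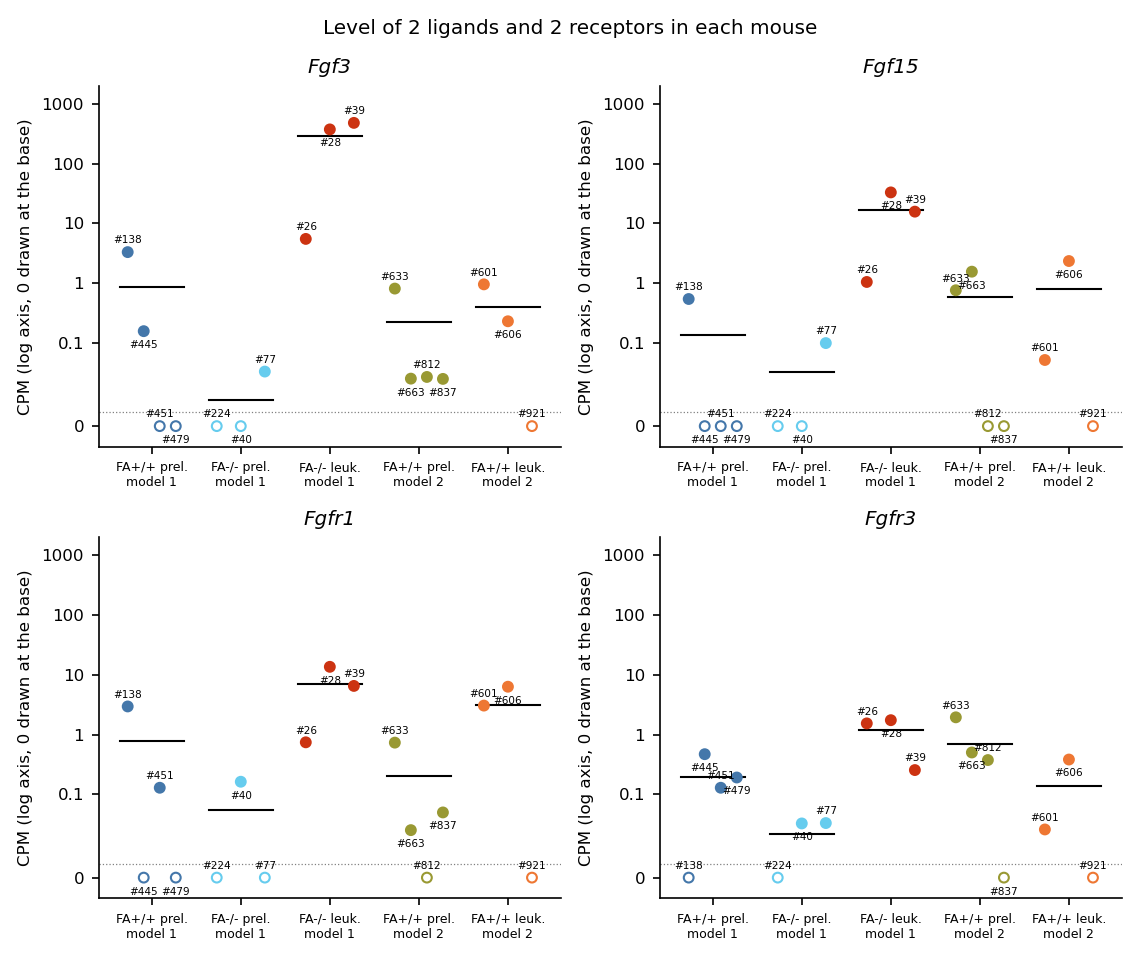
CPM of Fgf3, Fgf15, Fgfr1 and Fgfr3 in each mouse (points, marked # with the number that ends the title) on a log axis, by group (prel., preleukaemic; leuk., leukaemic), with open points for libraries without a count and bars for group means. In the FA-/- leukaemic group of model 1, Fgf3 lay at 375 and 482 CPM in leukemic_28 and leukemic_39 and at 5.48 CPM in leukemic_26, and preleukemic_138 stood above its own preleukaemic group for Fgf3, Fgf15 and Fgfr1.

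Next, the preleukaemic groups of model 1 were compared, which asks whether loss of Fanca alone went with a change of these genes. No member differed beyond the spread between mice. Fgf3 had 116, 5, 0 and 0 counts in the TgSpi1FA+/+ mice preleukemic_138, preleukemic_445, preleukemic_451 and preleukemic_479, or 3.29, 0.156, 0 and 0 CPM, so that 1 mouse held nearly all of the group. The same mouse held all 19 counts of Fgf15 in its group and 104 of 108 counts of Fgfr1. Fgfr3 was distributed otherwise, with 15, 4 and 6 counts in preleukemic_445, preleukemic_451 and preleukemic_479 and none in preleukemic_138. The groups overlapped for each of the 6 members with a count, where 8.53% of all genes tested did not overlap. In the edgeR quasi-likelihood test over 13393 genes, 1 gene passed an adjusted p of 0.05 and a fold change of 1.5 (0.00747%), and 0 of the 4 members past the filter did. At an unadjusted p under 0.05 it was again 0 of these 4 members in edgeR, 1159 genes in all. DESeq2 gave an unadjusted p under 0.05 for 2 of the 4, Fgf3 (adjusted p = 0.352) and Fgfr3 (adjusted p = 0.408), and called 235 genes but no member.

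The edgeR log2 fold change of TgSpi1FA-/- against TgSpi1FA+/+ preleukaemic mice was −5.97 for Fgf3 (SE 3.18, adjusted p = 0.636), −1.99 for Fgf15 (SE 2.03, adjusted p = 0.835), −3.77 for Fgfr1 (SE 2.25, adjusted p = 0.674) and −3.00 for Fgfr3 (SE 1.39, adjusted p = 0.586). Exact two-sided permutation tests of mean CPM, which with 3 against 4 mice cannot give less than p = 0.0571, gave p = 0.571, 1, 0.914 and 0.229 for these genes, and p = 1 for Fgfr2 and for Fgfr4. Without preleukemic_138 the fitted change of Fgf3 was −1.99 and its difference of mean CPM −0.0411 in place of −0.852. In the same fit the change turned to 3.27 for Fgf15 and to 0.30 for Fgfr1 (edgeR adjusted p = 0.721 and 0.978). Over all 12 alternatives of the fit the adjusted p lay between 0.717 and 0.991 for Fgf15 and between 0.563 and 0.978 for Fgfr1.

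In model 2, Fgf3 stayed low at both stages. It had 32, 1, 1 and 1 counts in the preleukaemic mice preleukemic_633, preleukemic_663, preleukemic_812 and preleukemic_837 and 37, 9 and 0 in the leukaemic mice leukemic_601, leukemic_606 and leukemic_921, which did not pass the filter. Its highest level, 0.949 CPM in leukemic_601, compares with 5.48 CPM in leukemic_26 of model 1. In the second deposited count table, described below, leukemic_26 was at 0.425 CPM of the total count. That is below leukemic_601, which was at 0.981 CPM of the total count. Fgf15 had 30 and 62 counts in preleukemic_633 and preleukemic_663 and none in preleukemic_812 and preleukemic_837, against 2, 92 and 0 in leukemic_601, leukemic_606 and leukemic_921. The mouse with most Fgf15 was thus not the mouse with most Fgf3, and per kilobase Fgf3 was at 0.129 times Fgf15 in leukemic_606.

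Fgfr1 had the largest difference between stages in model 2, with 119 and 249 counts in the leukaemic mice leukemic_601 and leukemic_606 (3.05 and 6.32 CPM) but none in leukemic_921, and 29, 1, 0 and 2 in the preleukaemic mice preleukemic_633, preleukemic_663, preleukemic_812 and preleukemic_837. Its edgeR log2 fold change was 3.93 (SE 1.89, adjusted p = 0.291), and the exact permutation test of the mean difference of 2.92 CPM, which was 1.32 CPM without leukemic_606, gave p = 0.286. Fgfr3 lay the other way, with 77, 20, 14 and 0 counts in the preleukaemic mice and 1, 15 and 0 in the leukaemic ones (log2 fold change −2.34, SE 1.68, edgeR adjusted p = 0.472, exact permutation p = 0.4). That change was −1.07 without preleukemic_633 and −5.42 without leukemic_606, and the mean difference of −0.568 CPM was −0.156 CPM without preleukemic_633. Fgf15 had a log2 fold change of 0.46 (SE 1.97, edgeR adjusted p = 0.918, exact permutation p = 0.686), and −4.30 without leukemic_606. Exact permutation tests gave p = 0.514 for Fgf3 and p = 1 for Fgfr4. For each of the 5 members with a count the stages overlapped, where 20.1% of 12970 genes did not. The edgeR test called 0 of these 12970 genes (0%) at the same threshold and so 0 of the 3 members past the filter. At an unadjusted p under 0.05 edgeR had 2587 genes and 0 of these members, and DESeq2 called 471 genes after adjustment and none of these members.

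A second deposited table gives counts for 7 of the mice of model 1, the TgSpi1FA+/+ preleukaemic and the TgSpi1FA-/- leukaemic ones, from deeper libraries except for leukemic_39 (35497594 against 38161124 counts). How it relates to the first table is not given in the sources used here. Levels are given here as plain CPM of the total count. Fgf3 was again high in leukemic_28 and leukemic_39, at 160 and 309 CPM against 384 and 498 CPM in the first table, and far lower in leukemic_26, at 0.425 CPM against 5.55 CPM. Mouse leukemic_26 had 73 counts of Fgf3 in the second table and 200 in the first, although the second library was the larger, and it then lay below preleukemic_138 of the TgSpi1FA+/+ preleukaemic group (0.724 CPM). The log2 ratio of the second to the first table was −3.71 for Fgf3 in leukemic_26, while 90% of the 9876 genes with at least 100 counts in both had a log2 ratio between −1.24 and 1.46 in this mouse. Fgf3, with 73 counts in the second table, was not among these genes, which leave out any gene that was low in either table.

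Fgf15 was at 0.0525, 7.80 and 11.6 CPM in leukemic_26, leukemic_28 and leukemic_39 in the second table, so its order between leukemic_28 and leukemic_39 turned. Fgfr1 was at 2.05, 25.8 and 4.17 CPM in these mice and at most at 0.473 CPM in the preleukaemic ones, whereas in the first table preleukemic_138 (2.98 CPM) lay above leukemic_26 (0.749 CPM). Fgfr3 was at 1.20, 2.77 and 0.338 CPM against at most 0.129 CPM in the preleukaemic mice. Fgf4 had 30 counts in leukemic_28 (0.213 CPM), 3 in leukemic_39 and none in the other mice, and Fgfr4 had up to 33 counts (leukemic_28), with preleukemic_451 of the preleukaemic group at the highest level, 0.237 CPM. The separation of leukemic_28 and leukemic_39 in Fgf3 thus held in both tables, whereas that of leukemic_26 from the preleukaemic group did not.

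**Figure D2:**
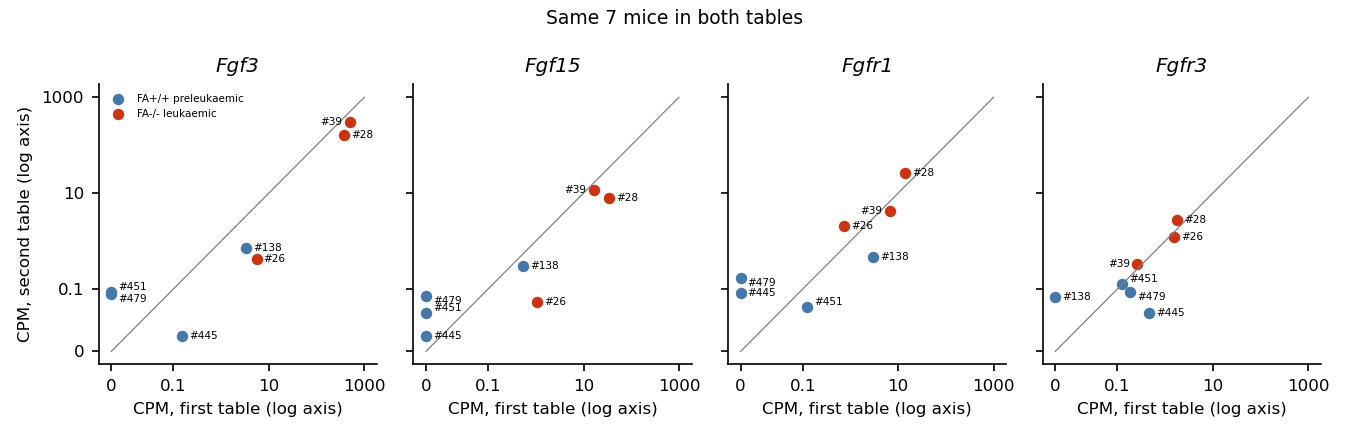
Plain CPM of Fgf3, Fgf15, Fgfr1 and Fgfr3 in the second table (vertical, log axis) against the first (horizontal, log axis) in 7 mice, with a line of equal values and 0 drawn at the base. Fgf3 lay at 160 and 309 CPM in leukemic_28 and leukemic_39 in the second table, and leukemic_26 at 5.55 CPM in the first table and 0.425 CPM in the second, below preleukemic_138.

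The genes around Fgf3 were then read in the same libraries. Within 1 Mb on either side, 31 genes are annotated and 19 had a count, 16 of them besides the ligands. None of the 9 neighbours past the filter passed the edgeR threshold between TgSpi1FA-/- leukaemic and preleukaemic mice, where 13.3% of all genes did (1782 of 13393), and their median log2 fold change was −0.23. Fadd, an adaptor of death receptors, had a log2 fold change of −0.30 (SE 0.21, edgeR adjusted p = 0.375) and Cttn, an actin-binding protein, one of 0.15 (SE 0.26, edgeR adjusted p = 0.717). Both were expressed throughout model 1, Fadd at 15.6 to 30.2 CPM and Cttn at 87.4 to 181 CPM. Ano1, a calcium-activated chloride channel, was at 4.30, 28.3 and 3.27 CPM in leukemic_26, leukemic_28 and leukemic_39 and at its highest, 72.8 CPM, in preleukemic_138 (log2 fold change 1.78, SE 1.79, edgeR adjusted p = 0.531). The neighbours called numbered 0 of 9 between the preleukaemic genotypes and 0 of 10 in model 2.

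Gm26793, annotated on the minus strand from 144894560 to 144897461 and so overlapping the start of Fgf15, was at 0.603, 5.52 and 14.9 CPM in leukemic_26, leukemic_28 and leukemic_39 and at 1.31 CPM in preleukemic_138. Its log2 fold change was 5.72 (SE 2.30, edgeR adjusted p = 0.120). The kit keeps the strand, but whether counting used it is not given in the sources used here, so counts of Fgf15 and Gm26793 may not be separated. Ccnd1, the gene of cyclin D1, which starts 91.8 kb from the Fgf3 start, had no count in the preleukaemic mice of model 1 or in leukemic_26, and 0.383 and 0.609 CPM in leukemic_28 and leukemic_39. It was below the filter in the main fit. Ccnd1 came above the filter, and passed the threshold, only with leukemic_26 left out (log2 fold change 7.08). That fit drops the leukaemic mouse without a count, so the call follows from the choice of mice and is not read as a result. In model 2, 1 preleukaemic mouse, preleukemic_663, had 33.2 CPM of Ccnd1.

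**Figure D3:**
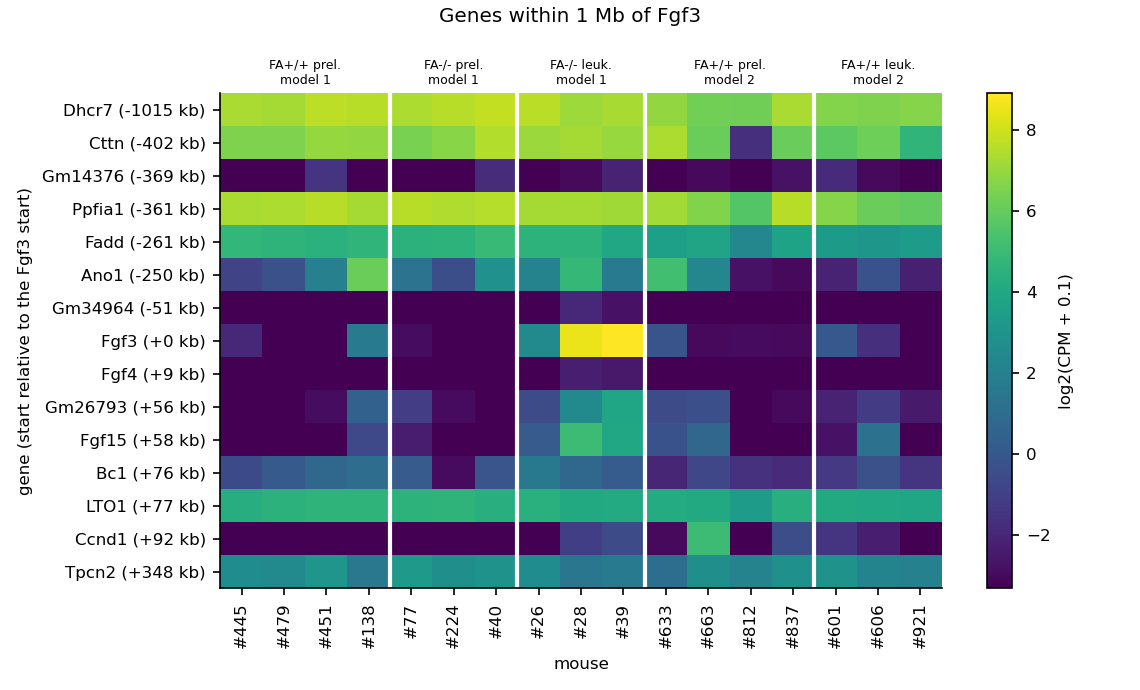
log2(CPM + 0.1) of the genes within 1 Mb of Fgf3 that had more than 3 counts in a library, ordered by their start relative to the Fgf3 start (kb), in each mouse. Fgf3 was brightest in leukemic_28 and leukemic_39 (375 and 482 CPM), where Fgf15 was at 33.0 and 15.7 CPM, Gm26793 at 5.52 and 14.9 CPM, and Fgf4, which lies between Fgf3 and Fgf15, at or below 0.102 CPM.

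The gene whose profile was most like that of Fgf3 over the 10 libraries of model 1, by Pearson correlation of log2 CPM with a prior count of 2, was Hbb-bh1 (r = 0.990), an embryonic beta-like globin. It had 588, 71844 and 36960 counts in leukemic_26, leukemic_28 and leukemic_39, 344 in preleukemic_138 and at most 22 in the other mice of model 1. Ripor3 (r = 0.988), Fgf15 (r = 0.983) and Mapk8ip1 (r = 0.981) were also among the 5 most alike. Mapk8ip1, a JNK scaffold protein, had 23, 178 and 428 counts in leukemic_26, leukemic_28 and leukemic_39 and 30 in preleukemic_138. Of the receptors, Fgfr1 ranked 166th of 13392 genes (r = 0.928) and Fgfr3 2872nd (r = 0.575). These points share libraries, and the values at the top end come from leukemic_28 and leukemic_39 alone. In model 2 the likeness held only in part. Among its preleukaemic mice both genes were highest in preleukemic_633, Hbb-bh1 at 81.5 CPM and Fgf3 at 0.807 CPM. The other preleukaemic mice had at most 0.250 CPM of Hbb-bh1 and 0.0267 CPM of Fgf3. Fgf3 was highest in leukemic_601 (0.949 CPM), where Hbb-bh1 was at 0.077 CPM.

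The rest of the pathway was described through 4 lists of genes: other FGF ligands, co-receptors and binding proteins, adaptors, and feedback regulators and targets. Of the 74 genes, 38 passed the filter in model 1. Between TgSpi1FA-/- leukaemic and preleukaemic mice, 8 of these rose (6.82% of all genes tested rose) and 1 fell (6.49% of all fell). The median log2 fold change was 0.76 over the 38 genes and −0.0012 over all genes.

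Feedback regulators and targets held most of these, with 5 of 14 tested genes higher in leukaemic mice, none lower and a median log2 fold change of 1.5. The paper reports an activating mutation of Kit in leukemic_26 and of Nras in leukemic_28 and leukemic_39. It also found ERK active without erythropoietin in blasts of these mice. A response of this list to FGF ligands cannot be told apart from one to these mutations. Neither was tested. Spry4, a Sprouty inhibitor of receptor signalling to RAS, was at 43.3, 55.3 and 92.1 CPM in leukemic_26, leukemic_28 and leukemic_39 and at 1.26, 0 and 0.117 CPM in preleukemic_40, preleukemic_77 and preleukemic_224. It rose by a log2 fold change of 7.11 (SE 1.26, edgeR adjusted p = 0.0127). Unlike Fgf3, it was high in all leukaemic mice of model 1, leukemic_26 included. Dusp4, a nuclear phosphatase of ERK, rose by 7.55 (SE 1.91, edgeR adjusted p = 0.0330), with 0.603, 44.0 and 137 CPM in leukemic_26, leukemic_28 and leukemic_39, so that leukemic_26 lay within the preleukaemic range (0 to 0.841 CPM).

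Spred3 rose by 4.68 (SE 0.90, edgeR adjusted p = 0.0161), Spry1 by 2.84 (SE 0.60, adjusted p = 0.0206) and Spred1 by 1.23 (SE 0.32, adjusted p = 0.0346), all of them inhibitors of the RAS-ERK cascade. Spred1 had the highest mean of its list over the 10 libraries of model 1, at 224.4, 290.5 and 342.7 CPM in leukemic_26, leukemic_28 and leukemic_39 and at 99.8 to 146 CPM in the preleukaemic TgSpi1FA-/- mice. The early response gene Egr1 was the only gene of the list fitted lower in the leukaemic mice (log2 fold change −0.81, SE 0.61, edgeR adjusted p = 0.391). It was at 132, 166 and 76.4 CPM in leukemic_26, leukemic_28 and leukemic_39. In preleukemic_77, preleukemic_40 and preleukemic_224 it was at 75.3, 380 and 200 CPM. The ETS factors Etv4 and Etv5, commonly used as readouts of FGF signalling, did not pass (log2 fold changes 3.72 and 1.35, SE 1.28 and 0.60, edgeR adjusted p = 0.0807 and 0.152), but DESeq2 called Etv4, and edgeR without leukemic_26 called Etv5. Etv4 was at 6.0, 33.8 and 38.9 CPM in leukemic_26, leukemic_28 and leukemic_39 against 0.146 to 3.54 CPM. Dusp6, another ERK phosphatase induced by FGF, was at 14.9, 32.5 and 57.2 CPM in these mice and at 40.6 CPM in the preleukaemic mouse preleukemic_40 (log2 fold change 1.22, SE 1.19, edgeR adjusted p = 0.519).

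Among co-receptors and binding proteins, 3 of 10 tested genes passed, 2 higher and 1 lower, with a median of −0.01. Sdc3, a heparan sulphate proteoglycan of the syndecan family, had no count in the TgSpi1FA-/- preleukaemic mice and 1.23, 7.51 and 10.9 CPM in leukemic_26, leukemic_28 and leukemic_39, at least 69.3-fold higher against a floor of 3 counts per preleukaemic library (edgeR adjusted p = 0.0122). In the TgSpi1FA+/+ preleukaemic mice it had at most 3 counts. Sdc3 passed the filter only through the leukaemic mice, so its call rests on the group in which it was high and is no separate evidence. Hs2st1, which sulphates heparan chains, rose by a log2 fold change of 0.61 (SE 0.17, edgeR adjusted p = 0.0427), from 63.9 to 73.9 CPM up to 101 to 119 CPM. The TgSpi1FA+/+ preleukaemic mice, at 79.7 to 121 CPM, overlapped the leukaemic ones. Ext1, which builds these chains, fell by 1.21 (SE 0.30, edgeR adjusted p = 0.0307), from 104 to 125 CPM down to 43.2 to 52.9 CPM. Hs6st1, the most abundant gene of the list, was at 81.1 to 144 CPM in the leukaemic and 136 to 262 CPM in the preleukaemic mice (log2 fold change −0.75, SE 0.33, edgeR adjusted p = 0.154).

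Of the 12 adaptors, all tested, 1 passed: Crk, an SH2-SH3 adaptor, rose by 1.17 (SE 0.25, edgeR adjusted p = 0.0203), from 87.1 to 116 CPM in the preleukaemic TgSpi1FA-/- mice up to 204 to 248 CPM in the leukaemic ones. Grb2, the adaptor with the highest mean over the libraries of model 1 though not in the leukaemic group (210 CPM against 231 CPM for Crk), had a log2 fold change of −0.56 (SE 0.28, edgeR adjusted p = 0.189). Among the 19 other ligands, 2 passed the filter and neither passed the test. Fgf2 was at 5.70, 33.8 and 36.4 CPM in leukemic_26, leukemic_28 and leukemic_39, but also at 36.9 CPM in the preleukaemic mouse preleukemic_40 and at 39.7 CPM in preleukemic_138 (log2 fold change 0.73, SE 1.4, edgeR adjusted p = 0.759).

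Leaving out single mice changed most of these calls. Spry4 and Sdc3 passed in all 6 fits that left out a leukaemic or preleukaemic TgSpi1FA-/- mouse (log2 fold change of Spry4 between 6.54 and 9.94). For Sdc3, which came past the filter only through the leukaemic mice, this is no separate evidence. Hs2st1 passed in none of them, Dusp4, Ext1 and Spred1 only without leukemic_26, Crk and Spred3 in 3 and Spry1 in 2. The genes called numbered 12 without leukemic_26, 3 without leukemic_28, 4 without leukemic_39, 2 without preleukemic_224, 4 without preleukemic_40 and 4 without preleukemic_77. No gene of the 4 lists passed between the preleukaemic genotypes (0 of 38 tested) or in model 2 (0 of 36 tested). In all, edgeR called only 1 of 13393 and 0 of 12970 genes there. At an unadjusted p under 0.05 edgeR had 4 and 8 listed genes, where 8.65% and 19.9% of all genes tested fell below it. These counts say little about the lists. In model 2, Spry4 was at 2.21, 0.0254 and 0.397 CPM in the leukaemic mice leukemic_601, leukemic_606 and leukemic_921 and at 11.5 CPM in the preleukaemic mouse preleukemic_633. The difference between the models was not tested.

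**Figure D4:**
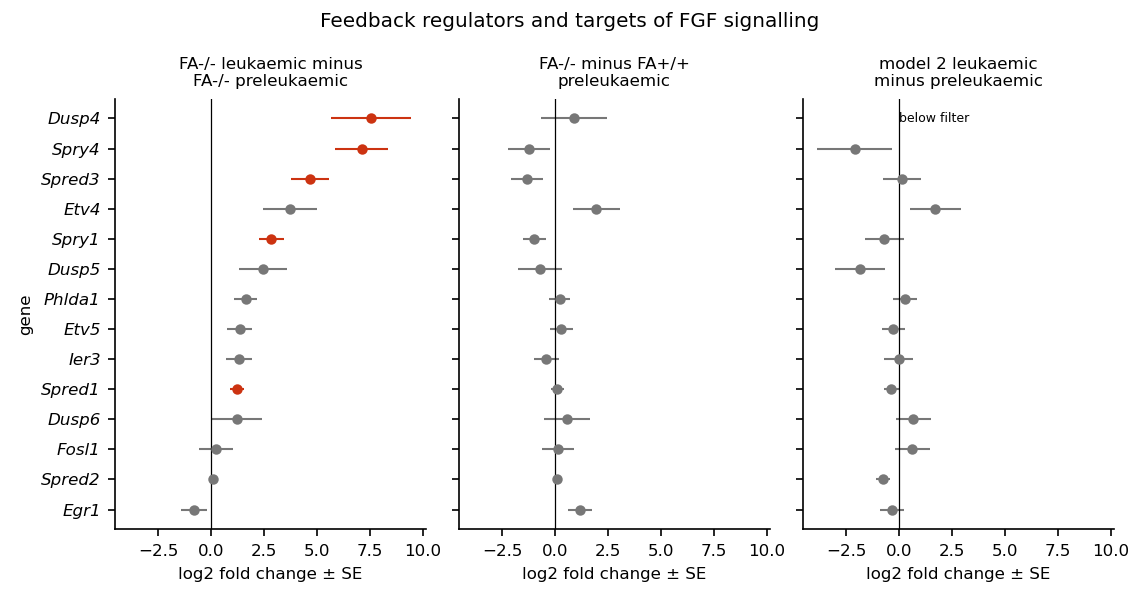
edgeR log2 fold change (points) with its standard error (bars) of the feedback regulators and targets in the 3 comparisons, with genes past the threshold in red. In the FA-/- leukaemic against preleukaemic comparison 5 of 14 genes passed, led by Dusp4 (7.55) and Spry4 (7.11), and none passed in the other comparisons.

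Some markers of other cell types were higher in the libraries in which the members were high, and others were not or lay the other way. The 4 epithelial markers (Epcam, Krt8, Krt18 and Cdh1) summed to 3.73, 6.13 and 12.3 CPM in leukemic_26, leukemic_28 and leukemic_39, to 5.08 CPM in preleukemic_138 and to at most 0.222 CPM in the other libraries of model 1, and 2 of 4 (Epcam and Krt18) had more than 3 counts in a leukaemic library, where Krt8 and Cdh1 were at or below 0.0511 CPM. Epcam made up 5.00 CPM of the sum in preleukemic_138 and 3.40, 3.32 and 3.91 CPM in leukemic_26, leukemic_28 and leukemic_39. The 4 endothelial markers summed to 12.3, 49.9 and 35.2 CPM in leukemic_26, leukemic_28 and leukemic_39 and to 1.55 to 7.98 CPM in the preleukaemic mice of model 1. Kdr was at 7.32, 26.7 and 34.5 CPM in those leukaemic mice and at most at 3.35 CPM in the preleukaemic ones. Tek was at 4.14, 21.4 and 0.102 CPM against 0.426 to 7.55 CPM, so that leukemic_39 lay below and leukemic_26 within the preleukaemic range. The list of megakaryocyte and mast cell genes lay at 164 to 250 CPM in the leukaemic, at 31.6 to 39.2 CPM in the preleukaemic TgSpi1FA-/- mice and at 46.0 to 188 CPM in the TgSpi1FA+/+ preleukaemic mice. Its members differed: Itga2b was at 92.8, 243 and 203 CPM in leukemic_26, leukemic_28 and leukemic_39 and at 16.1 to 21.8 CPM in the preleukaemic TgSpi1FA-/- mice, whereas Pf4 was at 69.9, 5.55 and 0.837 CPM against 9.19 to 23.0 CPM, and Mcpt8 had no count in the leukaemic mice. The adult globin Hbb-bt was at 7.62, 2.94 and 0.102 CPM in leukemic_26, leukemic_28 and leukemic_39 and at 97.7 to 388 CPM in preleukemic_40, preleukemic_77 and preleukemic_224. The 7 stromal markers summed to 0.939 to 6.01 CPM in the leukaemic and to 9.80 to 276 CPM in the preleukaemic TgSpi1FA-/- mice, of which Col1a2 made up 9.77 to 273 CPM. Pdgfrb lay the other way, at 0.281 to 1.07 CPM in the leukaemic mice and without a count in the preleukaemic TgSpi1FA-/- ones, and Col3a1 and Lum had no count in either. The part of these shifts in the levels of the members was not tested.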

How the data were processed

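RNA-seq was from poly(A) libraries of cultured blasts, 1 per mouse. The authors deposited raw counts per Ensembl gene on GRCm38 (mm10); the submitters' processing notes name bcl2fastq 2.17.1.14, STAR 2.5.3a and HTSeq 0.6.1p1, without the strand setting. From these counts, genes past filterByExpr were tested with edgeR 4.0.16 (quasi-likelihood, TMM, R 4.3.3) in a fit of the 3 groups of model 1 and one of model 2, and called past a fold change of 1.5 when p, adjusted by Benjamini-Hochberg, was below 0.05. The SE of an edgeR log2 fold change was derived from the test, as its size divided by the square root of the F statistic. DESeq2 1.42.0, other size factors, other filters, the compared groups alone and each mouse left out were alternatives. The tests were tested on simulated data. For edgeR, the pass mark applied only to a run at a low, fixed spread. It does not show how the test performs at the spread of these mice. Single values were compared by exact permutation tests (scipy 1.17.1). Intervals and floors (3 counts) cover counting error only. Gene positions come from GENCODE M21.

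A second deposited count table of 7 mice was used for levels. A further deposited table is a copy of the model 2 table and was not used. Named genes are the members, every listed or neighbouring gene called, the most abundant gene of each list and the 5 genes most like Fgf3 (1 of which is not reported here), with Fadd, Cttn, Ano1, Gm26793, Ccnd1, Etv4, Etv5, Egr1, Dusp6 and Fgf2 named after their values were seen. The members and lists were chosen with earlier results of these data known.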

Additional observations from a re-analysis of the deposited data

Results flagged for a closer look

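A total of 35 groups of 4 mice were tested for a single mouse far from the others. The mark was a gap, as a share of the group's range, past Dixon's 95% critical value, and 16 held one. That value gives about 1 in 20 only for independent, normally distributed values. A group with a count in 1 mouse alone always passes it, and the same mice recur across genes, so 16 is not read as an excess. All groups of 4 mice are TgSpi1FA+/+ preleukaemic mice of model 1 or model 2. In model 1, preleukemic_138 stood apart for Fgf3 (3.29 CPM), Fgf15 (0.54 CPM), Fgfr1 (2.95 CPM), Fgf2 (39.7 CPM), Crk (198 CPM) and Spred3 (2.36 CPM). Grb2 was at 478.95 CPM in preleukemic_451. Fgfr2 (0.0312 CPM, 1 count in preleukemic_445) and Fgfr4 (0.0952 CPM, 3 counts in preleukemic_479) are at the limit of detection.

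In model 2, preleukemic_633 stood apart for Fgf3 (0.807 CPM), Fgfr1 (0.731 CPM), Fgf2 (5.32 CPM), Spred3 (3 CPM) and Spry1 (14.7 CPM). Ext1 was at 77.4 CPM in preleukemic_837, and Fgfr4 at 0.0250 CPM in preleukemic_663 was a single count.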

How the results depend on the processing

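Between TgSpi1FA-/- leukaemic and preleukaemic mice, edgeR called 1782 genes and DESeq2 3070, and of the FGF pathway lists 9 and 14. Leaving out 1 mouse gave 414 (without leukemic_28) to 2319 genes (without leukemic_26), 2 to 12 listed genes and 0 to 1 neighbours of Fgf3. Between the preleukaemic genotypes, edgeR called 1 gene, DESeq2 235 and edgeR without a filter 4, and 1 to 16 with 1 mouse left out (16 without preleukemic_451). In model 2, edgeR called 0 genes and DESeq2 471, of the lists 0 and 1, and 0 to 1 genes with 1 mouse left out. The cause of these differences was not tested.

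With 1 mouse left out, the fitted log2 fold change between the preleukaemic genotypes lay between −5.28 and 3.27 for Fgf15 and between −7.74 and 0.30 for Fgfr1, with the upper values without preleukemic_138, and in model 2 between −4.30 (without leukemic_606) and 1.07 for Fgf15. The difference of mean CPM between the preleukaemic genotypes lay between −0.147 and 0.0328 for Fgf15 and between −0.973 and 0.0112 for Fgfr1. In model 2 it lay between −0.551 and 0.617 for Fgf15 and between −0.107 (without leukemic_601) and 0.368 for Fgf3. No paired analysis was possible because the groups share no replicate numbers. Members at a few counts per library are limited by depth.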

Other observations

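In the second count table of 7 mice, Spry4 was at 17.5, 48.4 and 82.1 CPM of the total count in leukemic_26, leukemic_28 and leukemic_39 and at most at 0.376 CPM in the TgSpi1FA+/+ preleukaemic mice. Dusp4 was at 0.0932, 13.8 and 94.5 CPM in those leukaemic mice, so that leukemic_26 lay within the range of the preleukaemic ones (0.0313 to 0.194 CPM). Spry1 overlapped between the groups there, with 4.01, 5.02 and 5.94 CPM in the leukaemic mice and 8.72 CPM in preleukemic_445. Spred3 was at 22.8, 33.3 and 47.3 CPM in the leukaemic mice, against 3.33, 9.13 and 19.8 CPM in the first table.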
